A study of Antheraea pernyi with 6 samples.

Results

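Neuropeptides, biogenic amines, insulin and their receptors were examined in the antennae of Antheraea pernyi, the Chinese oak silkmoth. The genes were those whose best-hit description in the deposited table holds any of a fixed list of names of neuropeptides, amines, muscarinic receptors and insulin. This gave 68 of the 16458 genes. Dopamine was searched only as dopamine receptor, and not every neuropeptide was named. Genes such as the dopamine transporter and myosuppressin are therefore outside the 68 and their ranks, and are read from other lists below. The study sequenced mRNA from untreated antennae in 6 libraries, 3 labelled female and 3 labelled male; the labels give no age, strain or number of animals, so p-values here cover only the spread between libraries, some of which may be technical. The question is which of these signalling genes differ in level between the labels.

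Neuropeptides are cut from larger precursor proteins, several are amidated at one end, and most act on G protein-coupled receptors. Octopamine and tyramine are the invertebrate amines that take the place of noradrenaline and adrenaline, and octopamine is known to raise the sensitivity of pheromone-detecting neurons in moth antennae. Insulin-like peptides act through a receptor tyrosine kinase that links nutrition to growth and, in insects, to reproduction.

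The name search sorted the 68 genes into 10 peptide precursors, 24 peptide receptors, 20 amine receptors, 2 amine enzymes and transporters, 3 muscarinic receptors, 7 genes of the insulin family and its pathway, and 2 genes whose names hold the word insulin but whose known function is another. No gene matched pheromone biosynthesis. Names are best hits, mostly to other moths, and were not checked by sequence. In 13 pairs, holding 24 of the genes, neighbouring identifiers carry the same best-hit name, so that one gene could have been split into separate models, and the levels of those models are uncertain.

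The libraries held between 9392242 and 11180175 reads, worked back from the spacing of the FPKM values (fragments per gene length and per mapped reads), with the lower totals all under the male label. Pheromone-binding protein 1 (GWHGABGR012196), which in silkmoths of this family is best known from male antennae, had a mean of 92516 ± 2089 FPKM (SD, n = 3) under the female label and of 1273 ± 90.6 FPKM under the male label. It took between 2.73% and 2.85% of reads in the former and between 0.0357% and 0.0412% in the latter. The neighbouring model also named pheromone binding protein 1 (GWHGABGR012197) was far less abundant and went the other way, at 361 ± 11.3 and 473 ± 30.3 FPKM (log2 change 0.39, limma adjusted p = 0.000548). That change fell to 0.13, with a limma adjusted p of 0.0648, once libraries were rescaled by the median of ratios. The odorant co-receptor (GWHGABGR013501, named chemosensory receptor 2), a marker of olfactory neurons, stood at 465 ± 5.9 and 176 ± 1.58 FPKM. Exchanged labels and a true difference of that direction cannot be told apart from these values, so the groups are called female-labelled and male-labelled throughout. In whole antennae, fewer cells of a type and less RNA per cell cannot be told apart either.

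Most of these genes were scarce. The median gene of the 68 had a mean of 0.606 FPKM, against 2.747 FPKM for all genes. Of the 68, 10 had a mean above 10 FPKM, 18 lay between 1 and 10 FPKM, and 40 were below 1 FPKM. The 4 most abundant held 77.1% of the summed FPKM of the 68 under the female label and 74.0% under the male label. In 34 of the 68 at least 1 library had no read.

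Genes with a mean of at least 0.5 FPKM were tested, which kept 38 of the 68 and left out 30 that had between 1 and 38 reads over the 6 libraries (median 3). The last gene left out was an IMFamide-like peptide at a mean of 0.471 FPKM, and the first kept was an insulin-degrading enzyme-like gene (GWHGABGR005265) at 0.519 FPKM. By limma on log2(FPKM + 1), with Benjamini-Hochberg adjustment over all 11590 genes tested, 15 of the 38 differed between the labels at an adjusted p under 0.05. Of these, 12 were higher under the male label and 3 under the female label. Of all genes tested, 36.9% passed, 27.8% higher under the male label and 9.03% higher under the female label, so the share among the 38 was near the background. The median log2 change of the 38 (male-labelled minus female-labelled) was 0.25, and that of all genes tested was 0.23. Groups without overlap were common. Of all genes tested, 37.9% had every male-labelled library above every female-labelled one, and 12.1% had the reverse. After rescaling by the median of ratios, which brings the median of all genes tested to 0.03, 11 of the 38 passed, against a background of 31.8%. Of these, 7 were higher under the male label and 4 under the female label, against 14.3% and 17.5% of all genes tested. With limma's voom on the recovered reads and the same rescaling, 14 passed, 9 and 5 in the same order, against a background of 35.4% (16.3% and 19.1%).

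**Figure D1:**
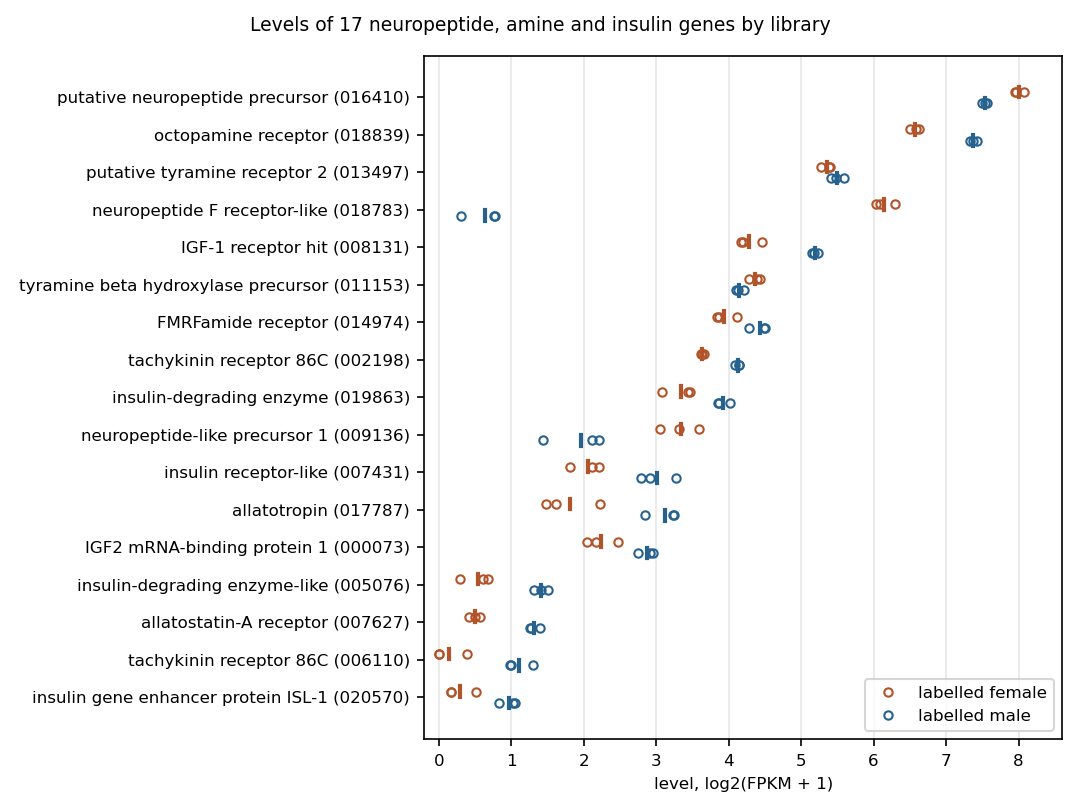
Level in log2(FPKM + 1) of 17 of the genes in each library (circles; bars are the mean of 3 libraries), labelled female in orange and labelled male in blue, comprising the 15 that passed the test and the most abundant ones. The neuropeptide F receptor-like gene has the widest gap, with means of 69.6 and 0.548 FPKM.

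Among the peptide precursors, the most abundant gene of the 68 under either label was a putative neuropeptide precursor (GWHGABGR016410), whose best hit gives no peptide name. It stood at 247, 250 and 268 FPKM in replicates 1 to 3 under the female label and at 185, 180 and 188 FPKM under the male label. The groups did not overlap, and every female-labelled library was above every male-labelled one. Between the labels the log2 change was -0.47 ± 0.05 (SE), with a limma adjusted p of 0.000103. Its mean level lay at percentile 96.5 of all genes under the female label and 95.2 under the male label.

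Neuropeptide-like precursor 1 (GWHGABGR009136), from which several small peptides are cut in insects, was also higher under the female label. It stood at 7.3, 11.02 and 8.98 FPKM under the female label and at 1.71, 3.6 and 3.32 FPKM under the male label, without overlap. Its log2 change was -1.40 ± 0.24 (limma adjusted p = 0.00242), resting on 374 and 102 reads.

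Allatotropin, a peptide named for stimulating juvenile hormone synthesis in the moth Manduca sexta, went the other way. One of its models (GWHGABGR017787) stood at 1.8, 2.07 and 3.65 FPKM under the female label and at 8.43, 6.18 and 8.38 FPKM under the male label. All male-labelled libraries were above all female-labelled ones, though on only 25 and 66 reads. Its log2 change was 1.33 ± 0.23 (limma adjusted p = 0.00253) on the log2(FPKM + 1) scale. No other of the 38 tested genes had a larger one toward the male label on that scale, but this rank depended on the pseudocount. With a pseudocount of 0.1 it was 1.63, and several genes of low level lay above it. They included a tachykinin receptor model on few reads (GWHGABGR006110, 2.94) and insulin gene enhancer protein ISL-1 (GWHGABGR020570, 1.84). An insulin-degrading enzyme-like gene (GWHGABGR005076, 1.75) and an allatostatin-A receptor model (GWHGABGR007627, 1.64) did so too. All of these also lay above it with voom on the recovered reads. The neighbouring allatotropin model (GWHGABGR017788) had means of 0.899 and 2.64 FPKM and did not pass (limma adjusted p = 0.079), except in 1 fit with 1 library left out.

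The other 6 precursors were at or near the floor of detection and were not tested. The pro-neuropeptide Y-like precursor had 5 reads under the female label and 4 under the male label. Short neuropeptide F, a peptide that acts on olfactory neurons in Drosophila, had 1 and 0 reads, diuretic hormone 31 had 1 and 0, and diuretic hormone 41 had 1 and 2. The tachykinin precursor had 0 and 2 reads, and the IMFamide-like peptide had 3 and 4. No difference was detectable at that depth. Summed over the 10 precursors, between 259 and 283 FPKM were found under the female label and between 195 and 204 FPKM under the male label, most of it from the putative neuropeptide precursor.

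Among the peptide receptors, the neuropeptide F receptor-like gene (GWHGABGR018783, symbol CG1147) had by far the largest difference. Neuropeptide F is the insect relative of vertebrate neuropeptide Y, known in Drosophila for its part in feeding. The gene stood at 64.3, 66.7 and 77.7 FPKM under the female label and at 0.712, 0.696 and 0.236 FPKM under the male label. Every female-labelled library was far above every male-labelled one.

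Those levels rest on 2061 reads under the female label and 14 under the male label. Per library total, the ratio of reads was 126.67 (exact 95% interval 75.3 to 232.1, for counting error only). The log2 change was -5.52 ± 0.17 (limma adjusted p = 4.69e-08), the 11th largest toward the female label among the 11590 genes tested. The gene moved from percentile 90.5 of all genes under the female label to 29.7 under the male label. Among the 68 it came after only the putative neuropeptide precursor and an octopamine receptor under the female label, while under the male label its mean was 0.548 ± 0.27 FPKM.

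The remaining 4 peptide receptors that passed were higher under the male label. Among them were 2 models with the best hit tachykinin-like peptides receptor 86C, a Drosophila receptor of the tachykinin family. The weaker one (GWHGABGR006110) stood at 0, 0.306 and 0 FPKM under the female label and at 1.45, 0.978 and 0.994 FPKM under the male label. All its male-labelled libraries were higher, on 4 and 38 reads. The log2 change was 0.96 ± 0.22 (limma adjusted p = 0.0102), and on the reads the female-labelled level was 0.0906 times the male-labelled one (exact 95% interval 0.0235 to 0.252). The stronger one (GWHGABGR002198) had means of 11.4 ± 0.163 and 16.5 ± 0.361 FPKM, a log2 change of 0.49 ± 0.10 (limma adjusted p = 0.00518). It no longer passed after median-of-ratios rescaling (limma adjusted p = 0.088; from 0.00406 to 0.162 over all alternatives).

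An allatostatin-A receptor model (GWHGABGR007627), which binds a peptide named for holding back juvenile hormone synthesis, stood at 0.409, 0.485 and 0.333 FPKM under the female label and at 1.39, 1.41 and 1.62 FPKM under the male label. The groups were clearly apart, with 30 and 93 reads. The log2 change was 0.81 ± 0.19 (limma adjusted p = 0.0111), and it was lost under quantile normalization (0.0529; from 0.00137 to 0.0529 over all alternatives). The other model with that best hit (GWHGABGR007631) had means of 0.557 and 1.51 FPKM and did not pass. The FMRFamide receptor (GWHGABGR014974), the second most abundant peptide receptor under the female label and the first under the male label, had means of 14.4 ± 1.68 and 20.5 ± 1.73 FPKM. Its log2 change of 0.49 ± 0.12 (limma adjusted p = 0.0128) was lost after rescaling (0.156; from 0.00303 to 0.19 over all alternatives).

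Of the other peptide receptors tested, 7 did not pass. The corazonin receptor (GWHGABGR003852), whose ligand is a stress-related peptide of insects, had means of 2.27 and 4.55 FPKM (limma adjusted p = 0.0751). The 2 models of tachykinin-like peptides receptor 99D had 3.08 and 3.48 FPKM (GWHGABGR010726) and 1.61 and 2.8 FPKM (GWHGABGR010727), and the diapause hormone receptor (GWHGABGR012898) had 1.14 and 1.56 FPKM. With 1 library left out, the corazonin receptor and GWHGABGR010727 each passed in 1 fit. The summed level of the 24 peptide receptors lay between 102 and 115 FPKM under the female label and between 55.6 and 59.8 FPKM under the male label. That difference followed the neuropeptide F receptor-like gene, since 4 of the 5 receptors that passed were higher under the male label.

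**Figure D2:**
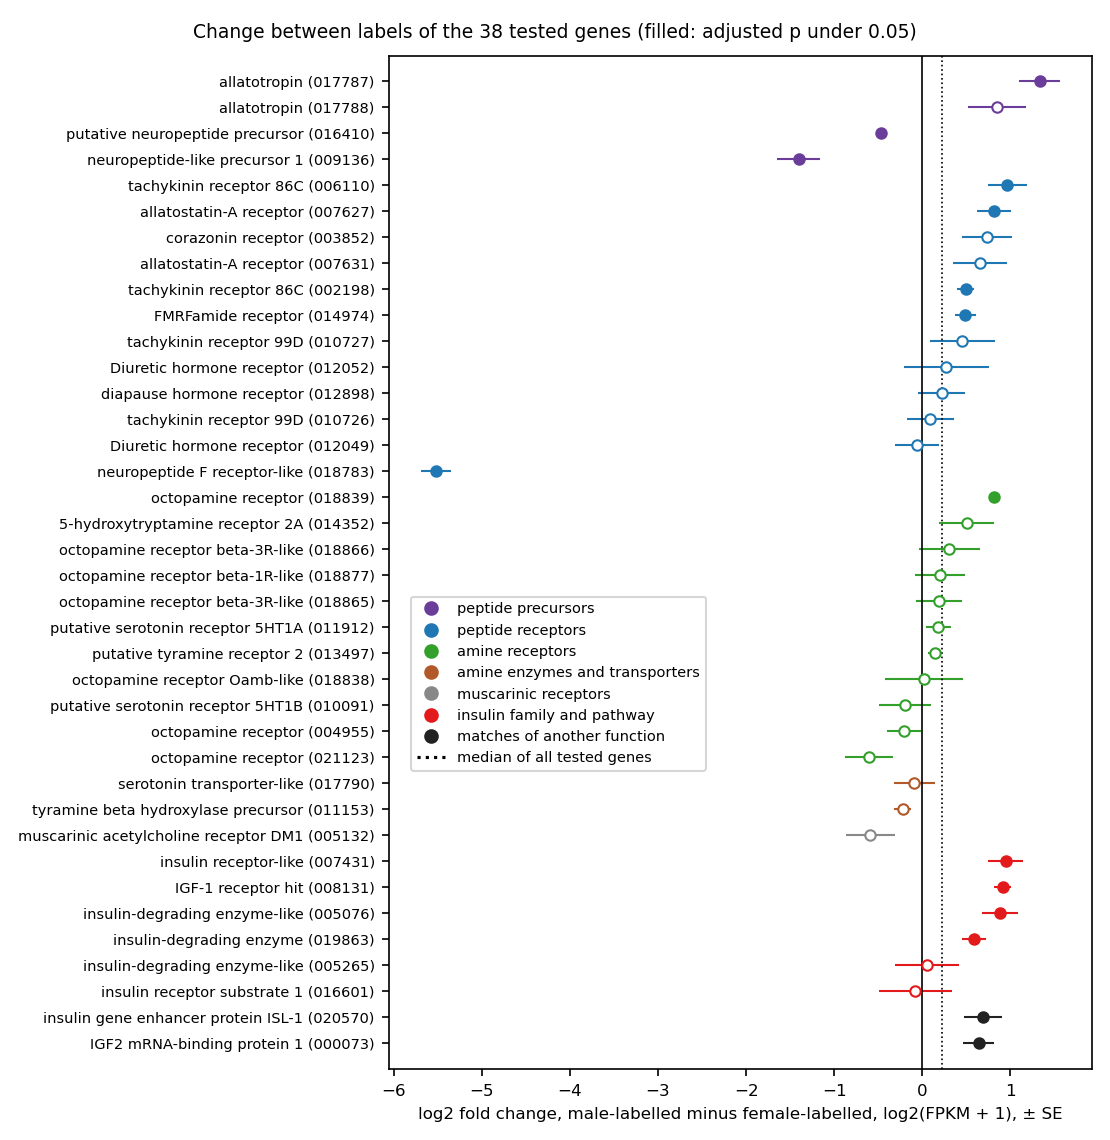
Log2 change (male-labelled minus female-labelled, on log2(FPKM + 1)) with its SE for the 38 tested genes, coloured by role and filled where the limma adjusted p is under 0.05, with the median of all tested genes as a dotted line. The neuropeptide F receptor-like gene lies at -5.52, while all other genes lie between -1.40 and 1.33.

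The amine receptors were led by an octopamine receptor (GWHGABGR018839, symbol CG3856), the second most abundant of the 68 genes under either label. It stood at 89.2, 97.4 and 94.7 FPKM under the female label and at 164, 161 and 171 FPKM under the male label. Every male-labelled library was above every female-labelled one. A log2 change of 0.81 ± 0.05 (limma adjusted p = 7.4e-06) was found, on 7671 and 11627 reads. Its neighbouring model named octopamine receptor Oamb-like (GWHGABGR018838) had means of only 1.11 and 1.04 FPKM.

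Putative tyramine receptor 2 (GWHGABGR013497), a receptor for the direct precursor of octopamine, followed, behind the neuropeptide F receptor-like gene under the female label and directly after the octopamine receptor under the male label. It stood at 40.7, 37.8 and 41.3 FPKM under the female label and at 43.7, 47.4 and 41.7 FPKM under the male label. The groups came close without overlapping, and the log2 change of 0.14 ± 0.08 did not pass (limma adjusted p = 0.18) and turned to -0.11 after rescaling.

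No other amine receptor of the 11 tested passed in the main limma test, none had an unadjusted p under 0.05 there, and none passed with voom on the recovered reads after rescaling. With 1 library left out, octopamine receptor model GWHGABGR021123 and 5-hydroxytryptamine receptor 2A (GWHGABGR014352) each passed in 1 fit. The putative serotonin receptor 5HT1A (GWHGABGR011912) was the next most abundant, with means of 10.6 and 12.2 FPKM from overlapping groups (limma adjusted p = 0.344), and 5HT1B (GWHGABGR010091) had 3.21 and 2.86 FPKM. The beta-type octopamine receptors, which raise cyclic AMP, had 3.7 and 4.59 FPKM (GWHGABGR018866), 1.62 and 1.92 FPKM (GWHGABGR018865) and 0.75 and 1.0 FPKM (GWHGABGR018877). A further octopamine receptor model (GWHGABGR021123) had 0.971 and 0.341 FPKM (limma adjusted p = 0.119).

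Of the 9 amine receptors left out of the test, dopamine receptor-1 had 2 reads under the female label and 1 under the male label, and the tyramine receptor 1-like gene had 0 and 1. The summed level of the 20 amine receptors lay between 153 and 165 FPKM under the female label and between 232 and 245 FPKM under the male label, and the octopamine receptor CG3856 held most of it.

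Tyramine beta hydroxylase (GWHGABGR011153, symbol CG1543), the enzyme that makes octopamine from tyramine, stood at 20.6, 18.5 and 19.9 FPKM under the female label and at 16.5, 17.4 and 16.2 FPKM under the male label. The groups did not overlap, with the female-labelled libraries higher. The log2 change of -0.22 ± 0.09 did not pass (limma adjusted p = 0.0976). After median-of-ratios rescaling it was -0.47 and passed (0.00618; from 0.000413 to 0.226 over all alternatives). The serotonin transporter-like gene (GWHGABGR017790), which takes serotonin back into cells, had means of 1.16 and 1.06 FPKM and did not pass.

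Of the 3 muscarinic receptor models, which bind acetylcholine, 1 was tested. The muscarinic receptor DM1 model (GWHGABGR005132) had means of 0.921 and 0.25 FPKM on 34 and 8 reads, and did not pass (limma adjusted p = 0.131). It passed only with voom on the recovered reads after rescaling, lower under the male label (0.0473; from 0.0473 to 0.356 over all alternatives). Of the models not tested, the neighbouring DM1 model (GWHGABGR005133) had 16 and 4 reads. The gar-1 model (GWHGABGR006072) went the other way, with 7 and 23 reads.

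**Figure D3:**
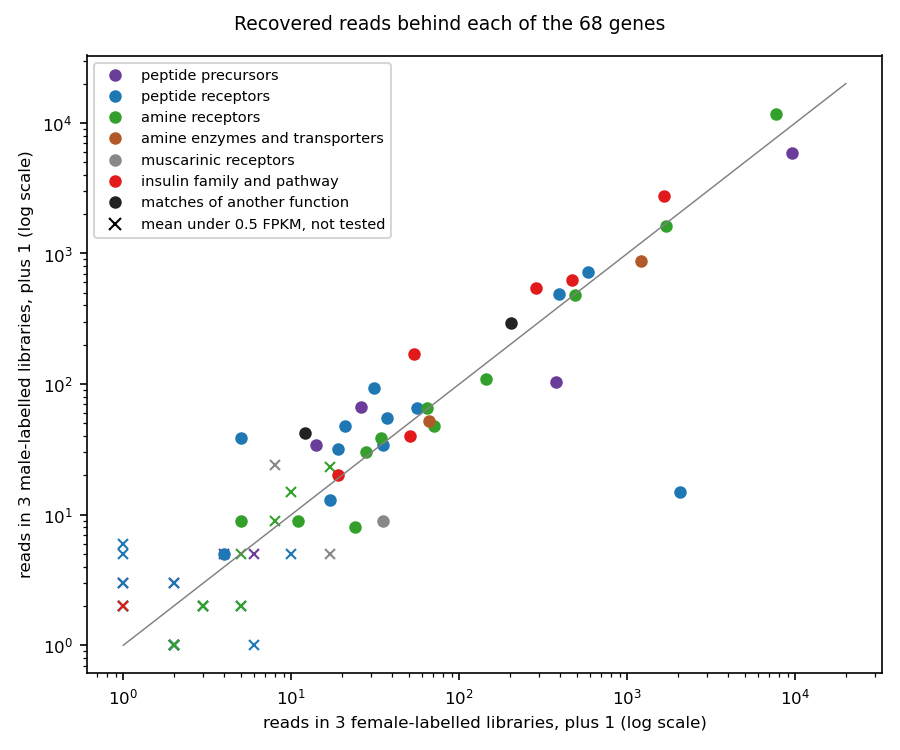
Reads summed over the 3 female-labelled libraries (x axis) and the 3 male-labelled ones (y axis) for each of the 68 genes, plus 1, on log scales, with a line of equal reads and crosses for the genes not tested. The neuropeptide F receptor-like gene lies farthest from the line, at 2061 and 14 reads.

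In the insulin family and pathway, 4 of the 6 genes tested were higher under the male label against 27.8% of all genes tested. After rescaling it was 3 of 6, against 14.3%, and under quantile normalization both insulin-degrading enzyme genes among the 4 were lost. None was higher under the female label with limma, at an unadjusted p under 0.05 or with voom on the recovered reads after rescaling. No gene named as an insulin-like peptide was among the 7. The gene with the best hit insulin-like growth factor 1 receptor (GWHGABGR008131, symbol insr) stood at 17.3, 20.9 and 17.1 FPKM under the female label and at 36.7, 35.1 and 34.5 FPKM under the male label. The groups were well apart, with a log2 change of 0.91 ± 0.10 (limma adjusted p = 0.000172). Insects have no separate growth factor receptor of that kind, so the name is that of the nearest hit.

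The gene named insulin receptor-like (GWHGABGR007431, also with the symbol insr) stood at 3.64, 3.33 and 2.51 FPKM under the female label and at 8.68, 6.56 and 5.89 FPKM under the male label. All male-labelled libraries were higher, and the log2 change was 0.95 ± 0.19 (limma adjusted p = 0.00599).

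Insulin-degrading enzyme is a metalloprotease that breaks down insulin and other small peptides. The gene of that name (GWHGABGR019863) stood at 7.48, 10.03 and 9.8 FPKM under the female label and at 15.2, 13.6 and 13.4 FPKM under the male label, without overlap. Its log2 change of 0.59 ± 0.14 passed (limma adjusted p = 0.0119) but was lost after rescaling (0.0924; from 0.00117 to 0.16 over all alternatives). An insulin-degrading enzyme-like gene (GWHGABGR005076) stood at 0.228, 0.525 and 0.592 FPKM against 1.84, 1.66 and 1.48 FPKM under the male label. All its male-labelled libraries were higher, with a log2 change of 0.88 ± 0.21 (limma adjusted p = 0.0106; from 0.000125 to 0.0508 over all alternatives, lost under quantile normalization).

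The other 2 tested genes of the insulin family did not pass. Insulin receptor substrate 1 (GWHGABGR016601), the adaptor that passes on the receptor's signal, had means of 2.04 and 1.87 FPKM, and a second insulin-degrading enzyme-like gene (GWHGABGR005265) had 0.471 and 0.568 FPKM. The summed level of the 7 genes lay between 31.6 and 37.6 FPKM under the female label and between 57.0 and 66.1 FPKM under the male label.

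The 2 genes that matched the word insulin but have another known function both passed, higher under the male label, as did 27.8% of all genes tested. Their groups did not overlap, as in 37.9% of all genes tested in that direction. Neither passed after median-of-ratios rescaling (limma adjusted p = 0.0988 and 0.064) or quantile normalization (0.224 and 0.143). Insulin-like growth factor 2 mRNA-binding protein 1 (GWHGABGR000073), an RNA-binding protein, stood at 4.55, 3.12 and 3.49 FPKM against 6.51, 6.75 and 5.7 FPKM. Its log2 change was 0.64 ± 0.17 (limma adjusted p = 0.0206). It was lost when female-labelled replicate 2 (0.0639) or 3 (0.058) or male-labelled replicate 1 (0.0603) or 2 (0.0635) was left out, and over all alternatives its adjusted p ranged from 0.00426 to 0.224.

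Insulin gene enhancer protein ISL-1 (GWHGABGR020570), a transcription factor of developing neurons, stood at 0.422, 0.119 and 0.123 FPKM under the female label and at 1.06, 1.04 and 0.774 FPKM under the male label, on 11 and 41 reads. Its log2 change was 0.69 ± 0.21 (limma adjusted p = 0.0343). Leaving out any library other than female-labelled replicate 1 ended the call, with an adjusted p of 0.0978 and 0.095 without female-labelled replicates 2 and 3 and of 0.0856, 0.0812 and 0.0513 without male-labelled replicates 1, 2 and 3 (0.0112 to 0.143 over all alternatives). It was also lost with the replicate block (0.0572).

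**Figure D4:**
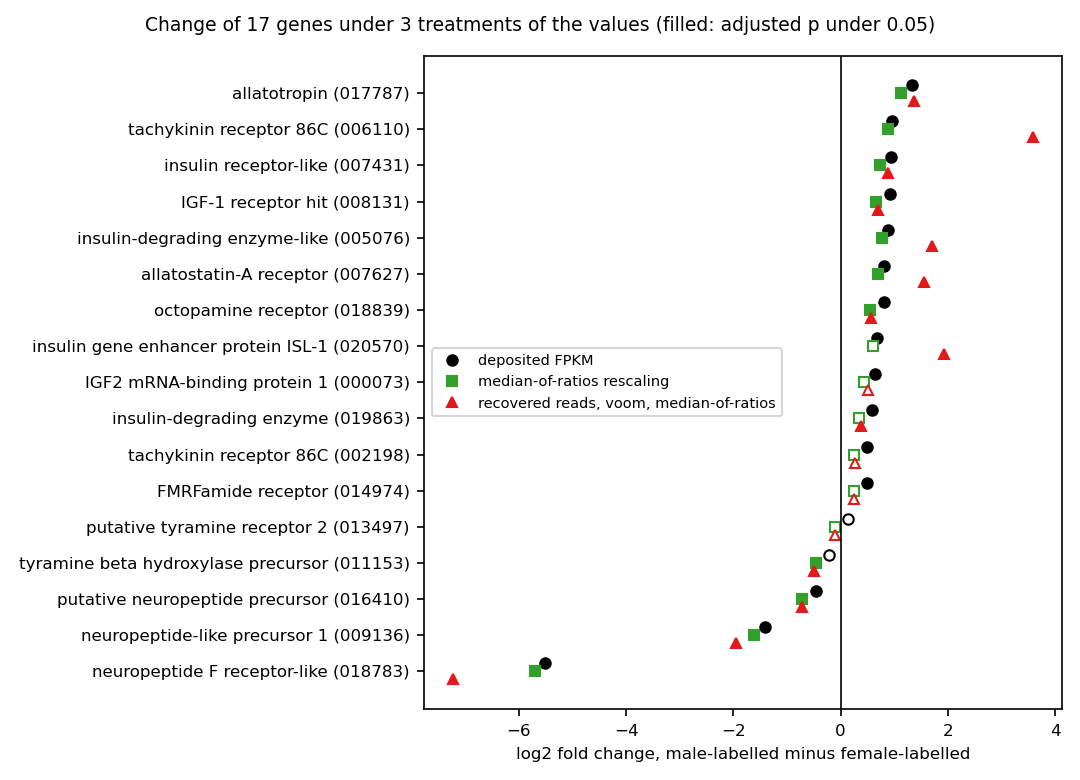
Log2 change (male-labelled minus female-labelled) of 17 genes on the deposited FPKM (circles), after median-of-ratios rescaling (squares) and from voom on recovered reads with the same rescaling (triangles), filled where the adjusted p is under 0.05. From circles to squares the female-labelled side grows and the male-labelled side shrinks, and putative tyramine receptor 2 passes from 0.14 to -0.11. Triangles of low genes can lie farther out, as for tachykinin receptor GWHGABGR006110 at 3.59.

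Of the 15 genes that passed, 10 also passed in the same direction after rescaling, and 8 passed under every alternative that tested them. Those 8 were the neuropeptide F receptor-like gene, neuropeptide-like precursor 1 and the putative neuropeptide precursor, higher under the female label, and allatotropin GWHGABGR017787, tachykinin receptor GWHGABGR006110, the octopamine receptor GWHGABGR018839 and both insulin receptor hits, higher under the male label. Tachykinin receptor GWHGABGR006110 reached the 0.5 FPKM filter only through its male-labelled libraries, with a female-labelled mean of 0.102 FPKM. The same held for ISL-1 (0.221 FPKM), allatostatin-A receptor GWHGABGR007627 (0.409 FPKM) and insulin-degrading enzyme-like GWHGABGR005076 (0.448 FPKM), which passed in the main test. In the order of levels, the putative neuropeptide precursor and the octopamine receptor came first and second under either label. Tyramine beta hydroxylase and the growth factor receptor hit overlapped under the female label, and tyramine beta hydroxylase and tachykinin receptor GWHGABGR002198 overlapped under the male label, so neither pair can be ordered beyond its spread.

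Genes that cut, amidate and break down peptides were then read from lists of names. All list counts below stand against 27.8% of all genes tested that were higher under the male label and 9.03% under the female label, or 14.3% and 17.5% after rescaling. Of 15 peptide processing genes tested, 5 were higher under the male label and 1 under the female label. One of the models named furin-like protease 2 (GWHGABGR003730), a protease of the kind that cuts precursors, had means of 8.13 ± 0.357 and 16.1 ± 2.34 FPKM, a log2 change of 0.90 (limma adjusted p = 0.00109). A peptidyl-glycine amidating lyase (GWHGABGR012025), which completes amidation, had 14.4 and 22.6 FPKM (log2 change 0.61, limma adjusted p = 0.000946). Another amidating lyase (GWHGABGR007255) had 23.8 and 24.3 FPKM and did not pass (0.02, limma adjusted p = 0.902). A carboxypeptidase M model (GWHGABGR011235) passed the other way, with 132 and 111 FPKM (-0.24, limma adjusted p = 0.0401). Neuroendocrine convertase 1 (GWHGABGR003662), with 10.6 and 9.02 FPKM, passed only after rescaling, lower under the male label (-0.45, limma adjusted p = 0.0199). Of 18 peptide breakdown genes tested, 6 were higher under the male label and 1 under the female label. An angiotensin-converting enzyme-like peptidase (GWHGABGR010787) had means of 207 ± 1.48 and 455 ± 15.4 FPKM (log2 change 1.13, limma adjusted p = 1.16e-07), and neprilysin-4 (GWHGABGR005215) had 30.4 and 52.6 FPKM (log2 change 0.77, limma adjusted p = 5.12e-05). The 3 neighbouring angiotensin-converting enzyme models did not pass, with 298 and 310 FPKM (GWHGABGR010782), 83.1 and 88.5 FPKM (GWHGABGR010786) and 142 and 146 FPKM (GWHGABGR010788). Neprilysin-2 (GWHGABGR000044) passed the other way, with 247 and 220 FPKM (log2 change -0.16, limma adjusted p = 0.0109). After rescaling, the counts were 3 and 4 for processing and 4 and 5 for breakdown. The male-labelled counts of both lists were near the share of all genes before rescaling. With any 1 library left out, 4 or 5 processing genes and 4 to 6 breakdown genes were higher under the male label. Under the female label it was 0 or 1 processing gene and 1 breakdown gene.

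Amine synthesis had 9 genes tested, of which 3 were higher under the male label and 2 under the female label (2 and 4 after rescaling, and 3 and 1 without any 1 library). Aromatic amino acid decarboxylase (GWHGABGR003900), which carries the symbol Ddc, the enzyme that makes dopamine and serotonin in insects, had means of 212 and 361 FPKM (log2 change 0.76, limma adjusted p = 1.28e-06). Tyrosine decarboxylase (GWHGABGR010080), the enzyme that makes tyramine, had 42.1 and 40.4 FPKM and did not pass (log2 change -0.06, limma adjusted p = 0.543). After rescaling it passed, lower under the male label (-0.31, 0.00925; from 0.00125 to 0.867 over all alternatives). Tyrosine hydroxylase (GWHGABGR000528), which serves dopamine and also cuticle tanning, had 13365 ± 133 and 14274 ± 379 FPKM. Its log2 change of 0.09 (limma adjusted p = 0.0117) turned to -0.16 after rescaling (0.00237), so no direction can be given.

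Amine transport and breakdown had 4 genes tested, 2 of them higher under the male label and 0 under the female label, where 1 had an unadjusted p under 0.05. After rescaling 2 were higher under each label, as with voom on the recovered reads and the same rescaling. Those higher under the male label were a dopamine N-acetyltransferase-like gene (GWHGABGR007968), with means of 4.81 and 14.8 FPKM (log2 change 1.52, limma adjusted p = 0.0045), and an arylalkylamine N-acetyltransferase (GWHGABGR007969), with 85.0 and 146 FPKM (0.77, limma adjusted p = 3.93e-06). Both enzymes acetylate amines. The dopamine transporter (GWHGABGR010335) had 225 and 222 FPKM and did not pass (limma adjusted p = 0.744), but passed after rescaling, lower under the male label (-0.28, 0.00205; from 8.01e-06 to 0.993 over all alternatives).

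Other peptide systems, which the name search did not take in, had 17 genes tested, with 8 higher under the male label and 2 under the female label (5 and 2 after rescaling). Leaving out 1 library gave 6 to 8 and 1 or 2. Myosuppressin (GWHGABGR017197), a peptide that slows visceral muscle, had means of 4.78 and 16.7 FPKM (log2 change 1.71, limma adjusted p = 0.00264). Ecdysis triggering hormone receptor subtype A (GWHGABGR018881), the receptor for a peptide that sets off moulting behaviour, had 0.471 and 2.75 FPKM (1.36, limma adjusted p = 0.00197). This receptor reached the 0.5 FPKM filter only through its male-labelled libraries. Downstream of the insulin receptor, 5 of 25 genes tested were higher under the male label and 1 under the female label, both below the shares of all genes tested. The male-labelled count was 3 without female-labelled replicate 3, male-labelled replicate 2 or male-labelled replicate 3, and at most 6 with 1 library left out. After rescaling 2 were higher under each label. Under quantile normalization the counts were 1 and 4. With voom on the recovered reads after rescaling they were 2 and 6, against 16.3% and 19.1% of all genes tested. The female-labelled count was thus not below the background in every setting. The translation repressor 4E-BP (GWHGABGR009285) had 38.2 and 70.1 FPKM (0.87, limma adjusted p = 0.000638), and the RAC kinase Akt (GWHGABGR008171) had 112 and 91.5 FPKM (-0.29, limma adjusted p = 0.00315).

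**Figure D5:**
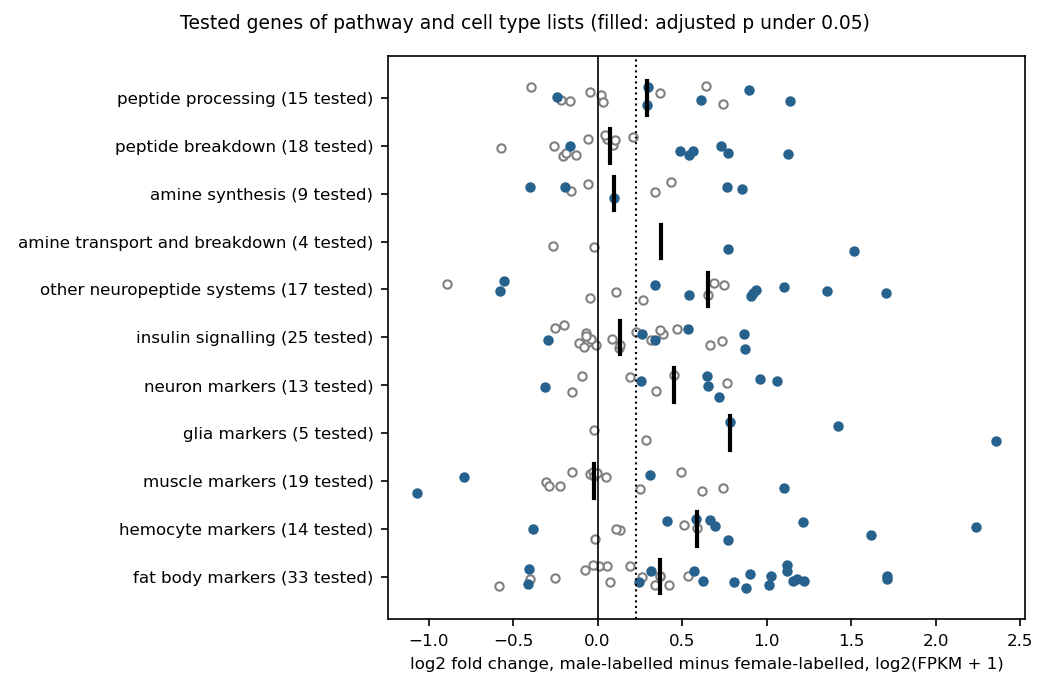
Log2 change (male-labelled minus female-labelled) of each tested gene of the pathway and cell type lists, filled where the limma adjusted p is under 0.05, with the list's median as a bar and the median of all tested genes as a dotted line. The glia list has the highest median (0.78) and the muscle list the lowest (-0.02).

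Markers of cell types that antennae can hold were read the same way, against the same shares of all genes. Of neuron markers, 6 of 13 tested were higher under the male label and 1 under the female label, with summed levels of 186 to 196 FPKM and 211 to 229 FPKM, and the first count fell to 3 without female-labelled replicate 3 or without male-labelled replicate 2. With 1 library left out, 0 or 1 neuron marker was higher under the female label. After rescaling 2 neuron markers were higher under each label. The pan-neuronal ELAV-like gene (GWHGABGR013959) had 82.9 and 77.5 FPKM and did not pass. Of glia markers, 3 of 5 were higher under the male label and 0 under the female label, as after rescaling and at an unadjusted p under 0.05, with summed levels of 22.9 to 24.9 FPKM and 59.1 to 63.2 FPKM. They included the glial factors repo (GWHGABGR014642), at 15.5 and 27.4 FPKM, and gcm2 (GWHGABGR021153), at 4.53 and 27.1 FPKM. Of hemocyte markers, 8 of 14 were higher under the male label and 1 under the female label (6 and 1 after rescaling), with sums of 2584 to 2672 FPKM and 3331 to 3454 FPKM.

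Of fat body markers, 16 of 33 were higher under the male label and 2 under the female label, or 11 and 2 after rescaling (1211 to 1265 FPKM and 1305 to 1366 FPKM). Of muscle markers, 2 of 19 were higher under each label, or 1 under the male label and 4 under the female label after rescaling (249 to 261 FPKM and 265 to 271 FPKM). Their female-labelled count fell to 0 without female-labelled replicate 3 and to 1 without female-labelled replicate 1 or 2 or male-labelled replicate 3, and at an unadjusted p under 0.05 there were 5 under the male label and 2 under the female label. Among the markers without any read under the female label were 3 of muscle, 1 of hemocytes and 9 of fat body, and no list gene was at 0 in all libraries. Other lists held such genes too. In the other peptide systems 7 genes had no read under the female label and 6 had none under the male label. For peptide breakdown it was 0 and 3. No share of all genes without reads is given here, so these counts have no background to be read against. Lists were matched by name, so some hold genes of other cells too. The part of these cell types in the differences of the neuropeptide, amine and insulin genes was not tested.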

How the data were processed

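Antennal mRNA of 6 libraries, 3 per label, was measured as FPKM per gene, as deposited by the authors, with best-hit names. Libraries were made with a stranded mRNA kit, per the labels' protocols. Per the submitters' processing notes, the tools were HISAT2, HTSeq, Trimmomatic and R 3.2.0, whose roles are not stated; the genome build is not given in the sources used here. Whole reads were recovered from the FPKM steps for all 16458 genes (within 0.01 read), taking the shortest length of at least 90 bases, so low read numbers can be too small by a common factor. Genes with a mean of at least 0.5 FPKM entered a 2-sided limma test (version 3.58.1, R 4.3.3) of log2(FPKM + 1), with label as the only term and the prior variance following mean level, with Benjamini-Hochberg adjustment at 0.05. On that scale changes of low genes are understated. On simulated data (11585 genes tested), the share recovered was 6.4% for 47 genes with a 1.5-fold change. It was 58.2% for 55 with a 2-fold change and 86% for 50 with a 4-fold change. The simulation changed only a small set of genes and fixed the spread between libraries in advance. In the data 36.9% of genes passed, so these shares do not give the recovery of the real test. The members and lists were chosen with earlier results of these data known. Full values are given for the 10 genes with the largest change in each direction among those that passed, the 6 most abundant and the neuropeptide F receptor-like gene; other genes are given by their means. Alternatives were other scalings, filters and pseudocounts, a replicate block, leaving out each library and, chosen after seeing the data, limma's voom on the recovered reads. Intervals on reads cover counting error only.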

Additional observations from a re-analysis of the deposited data

How the results depend on the processing

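Of the 38 genes tested, 15 passed; 14 passed with a replicate block (11 higher under the male label, 3 under the female label), and 13 to 16 with 1 library left out (10 to 13 and 3 to 4). Scaling mattered more: 9 passed under quantile normalization (5 higher under the male label), and 7 were higher under the male label after median-of-ratios rescaling. The factors estimated from these data were 1.081 to 1.101 under the male label and 0.9077 to 0.9199 under the female label. Dividing by them lowered male-labelled levels against female-labelled ones. With voom on recovered reads and median-of-ratios factors, an alternative chosen after seeing the data, 5 were higher under the female label. Rescaling moved the log2 ratio of summed FPKM (male-labelled over female-labelled) from -0.435 to -0.693 for precursors, from -0.898 to -1.16 for peptide receptors, from 0.576 to 0.319 for amine receptors, from -0.231 to -0.488 for amine enzymes and transporters, and from 0.851 to 0.594 for the insulin family. Putative tyramine receptor 2 (0.14) reversed to -0.1068 after rescaling, -0.04906 under quantile normalization and -0.1084 with voom and median-of-ratios factors. None of the 15 genes that passed changed sign under the 14 alternatives, while 14 of the 23 that did not pass changed sign in at least 1. No shared deviation of same-numbered libraries was seen, with correlations of 0.00513, 0.00589 and -0.00375. These cannot show how the libraries were prepared, and the labels give no pairing beyond the replicate number. Planned tests with count models were not run, because the deposited values are FPKM. With the 30 untested genes at 38 reads or fewer, depth limits what can be said of them.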
